A study of Homo sapiens with 12 samples.

Results

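Krüppel-like factors are zinc finger proteins that bind GC-rich and CACCC-type DNA, and the data here are the RNA levels of 10 genes of the family, KLF2, KLF3, KLF4, KLF6, KLF7, KLF9, KLF10, KLF11, KLF13 and KLF16, in human CCRF-CEM cells. The genes were picked by symbol from 44147 annotated features, and 7 of the 10 had enough exonic reads to be fitted. The choice was made with their exonic and intronic read counts in these same libraries in view, so every difference of a family gene is given as a description without a p-value. CCRF-CEM is an established line of T lymphoblasts from an acute leukemia. The study sequenced total RNA from SLFN11-knockout and wild-type (parent) cells exposed for 6 h to 100 nM prexasertib, which blocks the replication checkpoint enzyme CHK1, or to DMSO, the solvent, with no duration stated for the DMSO libraries. SLFN11 is a nuclear protein that blocks stressed replication forks, and the series title links it to chromatin remodeling and to activation of immediate early genes.

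The 12 libraries formed 4 groups of 3, namely knockout cells labelled prexasertib, knockout cells labelled DMSO, parent cells labelled prexasertib and parent cells labelled DMSO. All grew in RPMI1640 with 10% serum and were sequenced on 1 run. In 12 of 12 records, however, the library name carried by the file states the opposite treatment to the record. Groups are therefore called by their record labels throughout ("labelled prexasertib", "labelled DMSO"). Should the names on the files be right, every treatment difference below and every difference of treatment differences changes sign, and the knockout and parent comparisons under the 2 labels change places. The early response genes JUN and ATF3 show the size of what depends on this. In parent cells JUN had 57.0, 58.5 and 61.7 exonic CPM (reads scaled to the exonic total of each library) in libraries labelled prexasertib, against 509, 545 and 536 CPM in libraries labelled DMSO. ATF3 had 8.29, 10.1 and 8.92 CPM against 95.8, 92.1 and 98.2 CPM in the same groups, so both early genes were lower under the prexasertib label.

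The labels do not state if replicates were grown separately or whether the knockout line was 1 clone, so the spread between libraries may be technical. Exonic reads summed to between 47887791 and 77548202 per library, and of the nonzero exonic counts 58.0% to 59.6% were even numbers. Every nonzero exonic count of KLF4, KLF9 and KLF11, and of KLF3 in parent cells, was even. Whether both mates of a read pair were counted was not tested, and if they were, the read numbers given below overstate the independent fragments. SLFN11 itself had 85.0, 90.7 and 89.4 CPM in knockout cells labelled prexasertib and 65.9, 66.6 and 69.1 CPM in knockout cells labelled DMSO. Parent cells had 116, 119 and 117 CPM under the prexasertib label and 100.4, 91.1 and 95.1 CPM under the DMSO label. The knockout was thus lower by 0.41 and 0.51 on the log2 scale, and this RNA level is no check of the knockout label. All 12 markers of T lymphoblasts in a list of 12 reached 1 CPM in every group, while 0 of 5 myeloid and 0 of 3 erythroid markers did. Replicate 1 of the parent cells labelled prexasertib stood apart, with 30.3% of its reads intronic against 23.9% to 26.4% in the other libraries, and the member differences below that use it are also given without it.

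Family members share a carboxy-terminal stretch of zinc fingers, which reads similar DNA, and differ in the rest of the protein, which recruits different cofactors. KLF2, KLF4, KLF6 and KLF7 are mostly described as activators, KLF3 as a repressor that works through CtBP proteins, and KLF9, KLF10, KLF11, KLF13 and KLF16 as repressors that contact the SIN3A complex. In T cells KLF2 is known for holding naive cells in quiescence and for keeping trafficking receptors on their surface, KLF13 for driving the chemokine gene CCL5 after activation, and KLF10 for its place in TGF-beta signalling. KLF6 and KLF10 belong to the genes that many cell types switch on early after a stimulus.

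The proximal promoters of 3 members are shown. KLF6 and KLF13 had opposite differences between the treatment labels in parent cells. KLF2 is among the members with known upstream factors (MEF2 proteins) that were also measured. Each line gives the 250 bases before the RefSeq start in build GRCh38.p14, read 5′ to 3′ on the strand of the gene, and capitals mark each GC box (GGGCGG on either strand) and the MEF2 box.
KLF6 (chr10:3785210-3785459, minus strand): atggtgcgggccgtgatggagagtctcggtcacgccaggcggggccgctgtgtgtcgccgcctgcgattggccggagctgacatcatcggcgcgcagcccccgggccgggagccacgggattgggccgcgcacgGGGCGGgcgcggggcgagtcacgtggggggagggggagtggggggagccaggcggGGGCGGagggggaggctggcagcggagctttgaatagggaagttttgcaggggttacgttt
KLF13 (chr15:31326585-31326834, plus strand): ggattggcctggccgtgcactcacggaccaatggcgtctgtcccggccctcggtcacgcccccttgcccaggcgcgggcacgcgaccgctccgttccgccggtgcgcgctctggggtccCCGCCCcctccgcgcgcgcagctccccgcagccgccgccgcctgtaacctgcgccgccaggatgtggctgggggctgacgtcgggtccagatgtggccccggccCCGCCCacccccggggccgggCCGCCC
KLF2 (chr19:16324576-16324825, plus strand): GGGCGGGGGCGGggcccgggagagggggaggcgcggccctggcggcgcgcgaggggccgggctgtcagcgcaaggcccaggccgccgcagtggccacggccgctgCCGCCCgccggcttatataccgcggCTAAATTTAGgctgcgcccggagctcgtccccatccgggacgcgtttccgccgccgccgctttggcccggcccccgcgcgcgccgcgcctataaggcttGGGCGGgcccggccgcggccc
The KLF6 stretch holds 2 GC boxes, the KLF13 stretch 3 and the KLF2 stretch 4. A GC box, a sequence that SP1 and several Krüppel-like factors can bind, occurs in 42.6% of all 35116 RefSeq promoter stretches of this length. The MEF2 box of KLF2 is 1 match of a motif found in 2.80% of them.

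RefSeq stretches were matched for 8 of the 10 genes, all but KLF3 and KLF10. The 8 motifs searched on both strands were the short CRE TGACG, the full CRE TGACGTCA (which contains the short one), AP-1 TGANTCA, the GC box GGGCGG, the CACCC box CACCC, and, by name, the NF-kappaB motif and the CArG and MEF2 boxes. KLF16 had the most GC boxes, 7 in a stretch of 86.4% G and C, against a median of 58.0% over all stretches, and KLF9 had none in a stretch of 32.4%. The full CRE, present in 1.65% of all stretches, occurred in 1 of the 2 KLF11 starts and in no other member. AP-1, the motif that JUN binds, occurs in 6.57% of all stretches and was not among the letters of any member's stretch. A CArG box, found in 1.16%, occurred at 1 of the 4 KLF7 starts, the short CRE (21.2%) in KLF4, KLF11, KLF13 and KLF16, the NF-kappaB motif (54.4%) in KLF2, KLF4, KLF6, KLF7, KLF11, KLF13 and KLF16, and the CACCC box (54.7%) in KLF7, KLF11 and KLF13. These are matches of letters and say nothing of binding.

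Levels of different genes were set against each other only per exon length, in the authors' exonic TPM. Averaged over the 12 libraries, KLF13 led with 12.1 TPM, followed by KLF6 with 9.12, KLF10 with 7.98 and KLF16 with 4.22 TPM. KLF7 averaged 1.50, KLF2 0.856 and KLF3 0.480 TPM. KLF4, KLF9 and KLF11 were at the floor, with 0.0321, 0.0152 and 0.000539 TPM. The top of this order differed between groups. Knockout cells labelled prexasertib had KLF13 at 14.7 to 15.5, KLF6 at 8.25 to 8.92, KLF10 at 6.33 to 7.05 and KLF16 at 4.73 to 5.57 TPM. Knockout cells labelled DMSO had KLF6 at 10.995 to 12.4, just above KLF13 at 10.7 to 10.9, with KLF10 at 4.84 to 5.30 and KLF16 at 3.53 to 4.16 TPM. In parent cells labelled prexasertib KLF13 (14.6 to 15.15 TPM) stood above KLF10 (5.41 to 6.30) and KLF16 (4.31 to 6.36), whose ranges overlapped, and KLF6 came below them with 2.96 to 3.56 TPM. In parent cells labelled DMSO KLF10 (13.7 to 14.98 TPM) stood above KLF6 (12.5 to 13.5), and KLF13 came next with 7.63 to 7.79 TPM. The ranges of KLF2 and KLF3 overlapped in both knockout groups, and KLF2 and KLF7 overlapped in parent cells labelled DMSO.

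**Figure D1:**
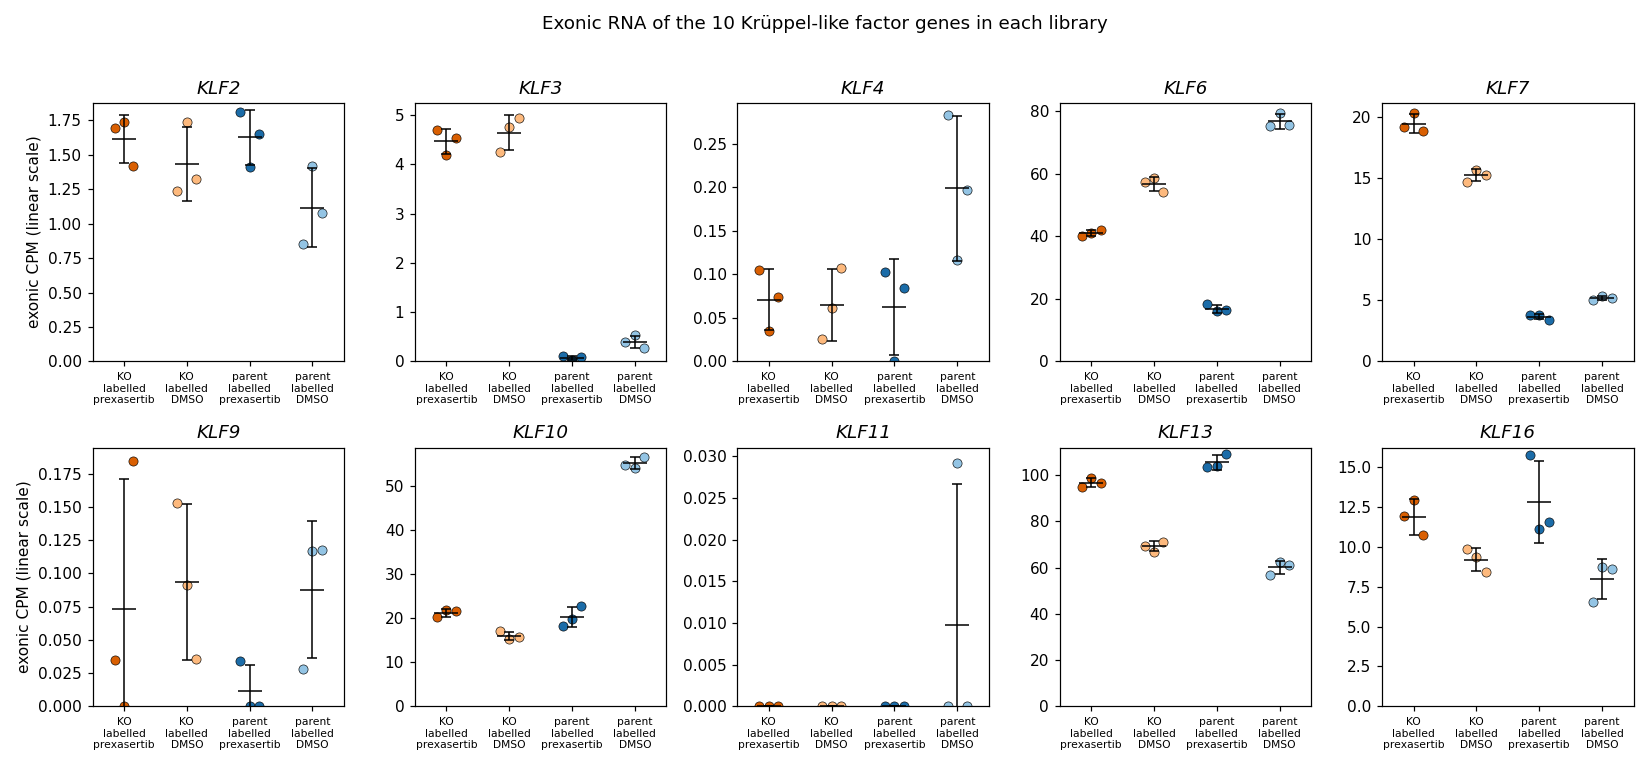
Exonic CPM (linear axis, a scale of its own for each gene) of the 10 genes, 1 point per library, with the mean and SD of each group of 3 (bars that would pass below 0 are clipped). KLF6 and KLF10 stand highest in parent cells labelled DMSO, KLF13 is higher under the prexasertib label in both lines, and KLF3 and KLF7 are higher in knockout than in parent cells.

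KLF6, a widely expressed activator whose known targets include the cell cycle inhibitor gene CDKN1A, lies at chr10:3818188-3827473 (hg19). It had 40.3, 41.1 and 42.0 CPM in knockout cells labelled prexasertib, against 57.4, 58.7 and 54.3 CPM in knockout cells labelled DMSO. Parent cells had 18.4, 16.0 and 16.3 CPM under the prexasertib label, against 75.4, 79.6 and 75.6 CPM under the DMSO label. Neither pair of groups overlapped, and the 4 groups were ordered with both parent groups at the ends and both knockout groups between them. The difference between the labels was −0.47 ± 0.06 on the log2 scale (SE, 3 libraries a group) in knockout cells and −2.18 ± 0.06 in parent cells, where the level was 4.54-fold lower. Every SE of a log2 difference given here is derived from the F statistic of the test and is not a direct standard error.

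KLF7, an activator best known from neuronal differentiation, lies at chr2:207938861-208031991. Knockout cells had 19.2, 20.4 and 18.9 CPM under the prexasertib label, against 14.7, 15.7 and 15.3 CPM under the DMSO label. Parent cells had 3.80, 3.80 and 3.43 CPM under the prexasertib label, against 5.03, 5.36 and 5.22 CPM under the DMSO label. The groups did not overlap in either line, and the sign differed, with +0.36 ± 0.08 in knockout and −0.50 ± 0.09 in parent cells on the log2 scale.

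KLF2 (chr19:16435628-16438685), the quiescence factor of naive T cells, was low in every library. Knockout cells had 1.70, 1.74 and 1.42 CPM under the prexasertib label, against 1.24, 1.74 and 1.33 CPM under the DMSO label. Parent cells had 1.81, 1.41 and 1.65 CPM under the prexasertib label, against 0.849, 1.42 and 1.08 CPM under the DMSO label. The groups overlapped in both lines, with log2 differences of 0.18 ± 0.21 in knockout and 0.54 ± 0.21 in parent cells. The parent value is counted among the calls below, but the call was lost with DESeq2, without the filter on low counts, with intronic reads added, with the parent groups fitted alone, and in every fit without 1 library except those without replicate 2 of either parent group. Over those fits the value ran from 0.33 to 0.72, with 0.33 and 0.42 without replicate 1 of the DMSO and prexasertib labels.

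KLF4 (chr9:110247133-110252763), a reprogramming factor that also slows the cell cycle, did not pass the filter on low counts. It had 6, 2 and 4 exonic reads in knockout cells labelled prexasertib and 2, 4 and 6 in knockout cells labelled DMSO. Parent cells had 6, 0 and 4 reads under the prexasertib label and 20, 8 and 10 under the DMSO label. The parent groups did not overlap, but the counts are too few for a fold change to be given.

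KLF3, the CtBP-recruiting repressor at chr4:38665817-38702663, was read almost only in the knockout line. It had 268, 241 and 246 exonic reads (4.69, 4.19 and 4.53 CPM) in knockout cells labelled prexasertib and 333, 312 and 275 reads (4.24, 4.75 and 4.93 CPM) in knockout cells labelled DMSO. Parent cells had 6, 2 and 4 reads under the prexasertib label and 28, 36 and 14 reads under the DMSO label. The knockout groups overlapped and the parent groups did not. On the log2 scale the difference between the labels was −0.05 ± 0.15 in knockout and −2.47 ± 0.36 in parent cells, where it rests on 12 and 78 reads over 3 libraries each. The parent SE is too narrow for so few reads. The 6, 2 and 4 reads of the parent libraries labelled prexasertib lay below the filter's minimum count of 10.

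KLF10, first described as a TGF-beta inducible early gene, had 20.1, 21.8 and 21.7 CPM in knockout cells labelled prexasertib, against 17.0, 15.22 and 15.6 CPM in knockout cells labelled DMSO. Parent cells had 18.2, 19.8 and 22.6 CPM under the prexasertib label, against 54.7, 54.0 and 56.6 CPM under the DMSO label. A single group thus stood apart, the parent cells labelled DMSO, while the other 3 lay between 15.22 and 22.6 CPM. The log2 difference between the labels was +0.41 ± 0.07 in knockout and −1.45 ± 0.07 in parent cells, where the level was 2.73-fold lower.

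KLF13 (chr15:31619058-31727868), which drives CCL5 in activated T cells, had 94.8, 98.6 and 96.6 CPM in knockout cells labelled prexasertib, against 69.5, 66.9 and 71.2 CPM in knockout cells labelled DMSO. Parent cells had 103, 104 and 109 CPM under the prexasertib label, against 57.0, 62.4 and 61.1 CPM under the DMSO label. KLF13 was higher under the prexasertib label in both lines, without overlap, by 0.48 ± 0.05 in knockout and 0.81 ± 0.05 in parent cells on the log2 scale.

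KLF16 (chr19:1852399-1863567), a SIN3-binding repressor of GC-rich promoters, had 11.9, 12.9 and 10.7 CPM in knockout cells labelled prexasertib, against 9.83, 9.34 and 8.39 CPM in knockout cells labelled DMSO. Parent cells had 15.8, 11.1 and 11.6 CPM under the prexasertib label, against 6.55, 8.75 and 8.62 CPM under the DMSO label. Its direction was that of KLF13 and neither pair overlapped, with log2 differences of 0.37 ± 0.13 in knockout and 0.69 ± 0.13 in parent cells. Without replicate 1 of the parent cells labelled prexasertib, the highest library, the parent difference was 0.48. Of the 2954 exonic bases of KLF16 only 1731 lie outside other annotated genes, and reads on those alone gave 0.61 in parent cells.

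KLF9, which steroid and thyroid hormones induce, and KLF11, the closest relative of KLF10, did not pass the filter. KLF9 (chr9:72999503-73029540) had 2, 0 and 10 exonic reads in knockout cells labelled prexasertib, 12, 6 and 2 in knockout cells labelled DMSO, 2, 0 and 0 in parent cells labelled prexasertib, and 2, 8 and 6 in parent cells labelled DMSO. KLF11 (chr2:10182976-10194963) had 2 reads in 1 parent library labelled DMSO and 0 in the other 11. By counting error alone 0 reads allow up to 3 reads a library, or more if both mates of a pair were counted. No difference in either gene was detectable at this depth.

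Of the 7 genes fitted, 3 were called higher and 1 lower in knockout cells labelled prexasertib against those labelled DMSO (edgeR's quasi-likelihood test, Benjamini-Hochberg adjusted p at most 0.05 over all genes), where 6.11% of 23045 genes were called higher and 6.83% lower. In parent cells 3 were called higher and 4 lower, where 18.2% of genes were called in each direction. The groups did not overlap for 5 of the 7 in knockout cells and for 6 of the 7 in parent cells, as for 34.3% and 43.3% of all genes. The median over the 7 genes was 0.36 in knockout cells and −0.50 in parent cells, against 0.00 and 0.04 over all genes tested. Since the genes were chosen on these counts, nothing is read from these shares. The treatment difference in knockout minus that in parent cells was +2.42 ± 0.40 for KLF3, +1.86 ± 0.10 for KLF10, +1.72 ± 0.08 for KLF6 and +0.85 ± 0.12 for KLF7 on the log2 scale. It was −0.33 ± 0.07 for KLF13, −0.32 ± 0.19 for KLF16 and −0.36 ± 0.29 for KLF2, so that 4 members were called higher and 1, KLF13, lower, where 9.53% of genes were called higher and 7.32% lower. KLF3 is among the 4, but its reads in parent cells labelled prexasertib lay below the filter's minimum count. Its SE is too narrow for its few parent reads. Without replicate 1 of the parent cells labelled prexasertib the exonic differences in parent cells were −2.86 for KLF3, −2.27 for KLF6, −0.55 for KLF7, −1.41 for KLF10 and 0.80 for KLF13, with those of KLF2 and KLF16 as given above. The difference of differences was then +2.82 for KLF3, +1.82 for KLF10, +1.81 for KLF6, +0.91 for KLF7, −0.31 for KLF13, −0.11 for KLF16 and −0.24 for KLF2.

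**Figure D2:**
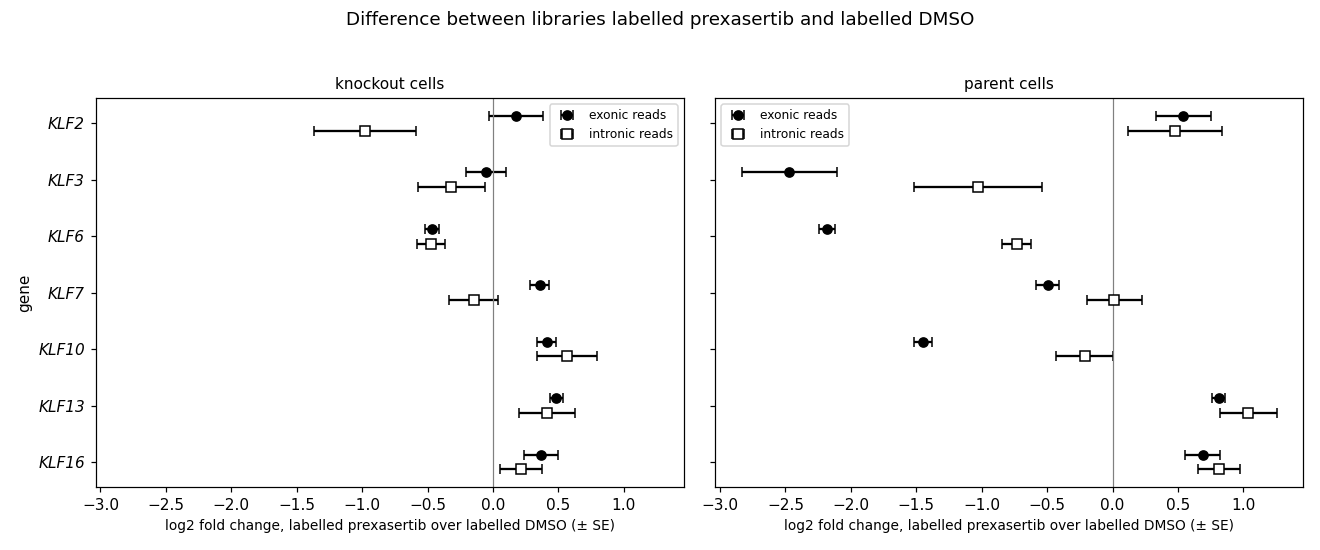
Difference between libraries labelled prexasertib and labelled DMSO on the log2 scale (fitted value ± SE, 3 libraries a group) for the 7 fitted genes, in knockout cells on the left and parent cells on the right. Filled circles are exonic and open squares intronic reads. In parent cells the exonic values of KLF6 and KLF10, −2.18 and −1.45, lie far to the left of their intronic values, −0.73 and −0.21.

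Intronic reads come mostly from transcripts that are not yet spliced and were counted separately by the authors. In parent cells the intronic differences of KLF6 and KLF10 between the labels were smaller than their exonic ones. KLF6 had 4.74, 4.81 and 4.53 intronic CPM (scaled to the same TMM-adjusted exonic totals) in knockout cells labelled prexasertib, against 6.33, 6.56 and 6.69 in knockout cells labelled DMSO. Parent cells had 2.89, 2.58 and 2.56 intronic CPM under the prexasertib label, against 3.89, 4.82 and 4.67 under the DMSO label. The groups did not overlap in either line, and the intronic log2 difference was −0.47 ± 0.10 in knockout and −0.73 ± 0.11 in parent cells. Intronic reads made up 9.73% to 10.5% of KLF6 reads in knockout cells labelled prexasertib and 9.93% to 10.96% in knockout cells labelled DMSO, which overlapped. In parent cells the share was 13.6%, 13.9% and 13.6% under the prexasertib label, against 4.91%, 5.71% and 5.82% under the DMSO label, above and below both knockout groups.

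KLF10 intronic reads numbered 42, 63 and 51 in knockout cells labelled prexasertib, 41, 40 and 42 in knockout cells labelled DMSO, 55, 63 and 39 in parent cells labelled prexasertib and 91, 65 and 51 in parent cells labelled DMSO. On the scale of intronic CPM the groups overlapped in both lines, with log2 differences of 0.57 ± 0.23 in knockout and −0.21 ± 0.22 in parent cells. The intronic share of KLF10 in knockout cells was 3.52% to 4.79% under the prexasertib and 2.98% to 4.61% under the DMSO label, and in parent cells 3.52% to 4.92% and 1.73% to 2.30%. KLF13 and KLF16 had intronic differences close to their exonic ones in parent cells, 1.04 ± 0.22 and 0.82 ± 0.16. Replicate 1 of the parent cells labelled prexasertib held 25.2 intronic CPM of KLF13 against 13.3 and 11.5 in the other replicates, and without it the KLF13 value was 0.61.

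KLF7 had a high intronic share everywhere, 42.0% to 44.4% in knockout cells labelled prexasertib, 50.9% to 53.0% in knockout cells labelled DMSO, 40.5% to 58.9% in parent cells labelled prexasertib and 36.3% to 45.5% in parent cells labelled DMSO. Its introns span 84159 bases and hold the annotated transcript KLF7-IT1. Its intronic difference in parent cells was 0.01 ± 0.21 and turned to −0.39 without replicate 1 of the prexasertib label. Over all 19852 genes fitted on intronic reads the median difference in parent cells was 0.20, and with intronic reads scaled by TMM factors of their own the KLF7 value was −0.22. On intronic reads 3 of the 7 members were called in parent cells, KLF13 and KLF16 higher and KLF6 lower, where 36.4% of genes were called in either direction. In knockout cells 1 of 7 was called, KLF6, which was lower, where 7.04% of genes were, and that call was lost without replicate 3 of either knockout group. The treatment difference in knockout minus that in parent cells was called on intronic reads for 0 of 7 members with edgeR, where 8.17% of genes were called at the same adjusted p. At an unadjusted p of at most 0.05 the count was 3 of 7, with no share over all genes computed, so nothing is read from it. KLF6 was at 0.26 ± 0.15, KLF10 at 0.78 ± 0.32 and KLF3 at 0.71 ± 0.55. Below 0 were KLF2 at −1.46 ± 0.53, KLF13 at −0.63 ± 0.30, KLF16 at −0.60 ± 0.23 and KLF7 at −0.16 ± 0.28. In knockout cells the intronic KLF2 difference between the labels was −0.98 ± 0.39, which was not called. It rests on 14, 9 and 7 reads under the prexasertib label, against 28, 20 and 22 under the DMSO label. Without replicate 1 of the parent cells labelled prexasertib the intronic difference in parent cells was 0.20 for KLF2 and −0.83 for KLF3. With that library they were 0.48 and −1.03. Without it the value was −0.79 for KLF6, −0.22 for KLF10 and 0.80 for KLF16. The differences of differences were then 0.32 for KLF6, 0.79 for KLF10, 0.51 for KLF3 and 0.25 for KLF7. Those of KLF2, KLF13 and KLF16 were −1.18, −0.20 and −0.59.

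**Figure D3:**
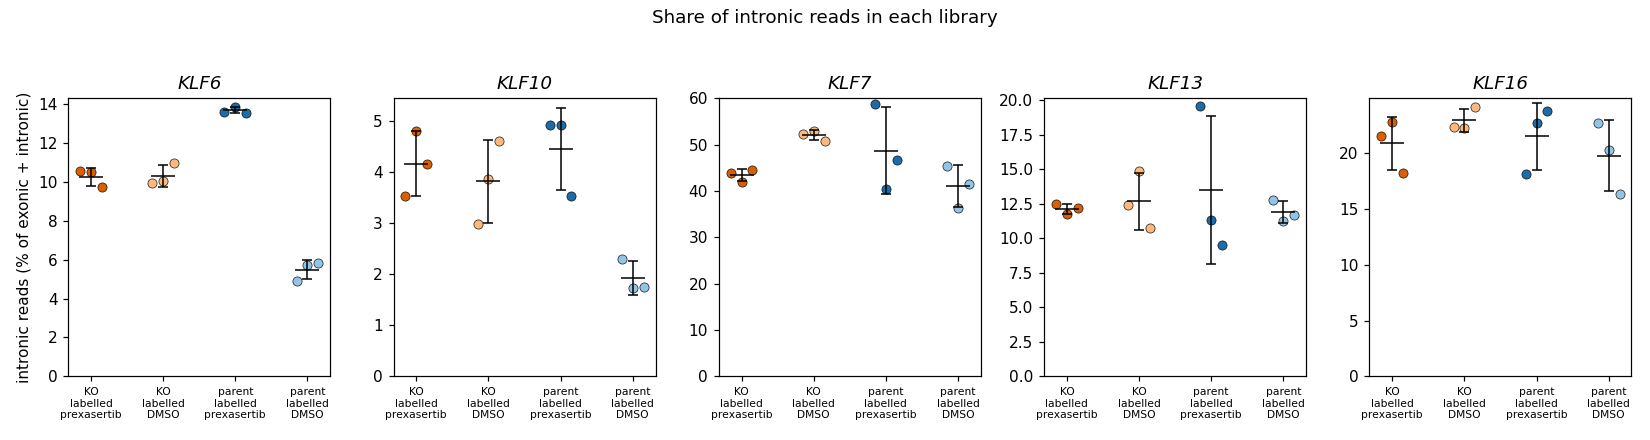
Intronic reads as a percentage of exonic plus intronic reads for 5 genes, 1 point per library, with the mean and SD of each group of 3 and a scale from 0 of its own for each gene. KLF6 and KLF10 have their lowest shares in parent cells labelled DMSO, 4.91% to 5.82% and 1.73% to 2.30%, where their exonic CPM were highest.

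KLF3 and KLF7 were higher in knockout than in parent cells under both treatment labels. KLF3 was higher in knockout than in parent cells by 5.92 ± 0.27 on the log2 scale under the prexasertib label, where the parent libraries held 2 to 6 reads, and by 3.50 ± 0.19 (11.3-fold) under the DMSO label. Under the prexasertib label its SE is too narrow for so few parent reads. KLF7 was higher by 2.40 ± 0.08 (5.29-fold) and 1.55 ± 0.08 (2.93-fold) under the same labels. Their groups did not overlap, and both genes kept this direction whichever treatment label holds. Intronic reads differed in the same direction, by 4.09 ± 0.38 and 3.39 ± 0.32 for KLF3 and by 2.02 ± 0.20 and 2.18 ± 0.20 for KLF7. Without replicate 1 of the parent cells labelled prexasertib the exonic values under that label were 6.29 for KLF3 and 2.43 for KLF7, and the intronic ones 3.89 and 2.43. Among markers of other cell types, the epithelial and fibroblast list summed to 9.88 to 11.3 CPM in knockout libraries and 1.80 to 2.60 CPM in parent libraries, with EPCAM the 1 of 5 markers at 1 CPM or more and KRT18 and COL1A2 at 0 in both knockout groups. The B cell list summed to 40.6 to 43.7 CPM in knockout and 25.1 to 34.9 CPM in parent libraries, with CD79A and CD79B the 2 of 5 at 1 CPM or more and MS4A1 at 0 throughout. The part of these markers in the differences between the lines was not tested.

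KLF6 and KLF10 differed between the lines in a way that depended on the label. KLF6 was higher in knockout cells by 1.28 ± 0.06 on the log2 scale under the prexasertib label and lower, at −0.44 ± 0.06, under the DMSO label. Its intronic reads were higher in knockout cells under both labels, by 0.81 ± 0.11 and 0.55 ± 0.10, so exonic and intronic reads had opposite signs under the DMSO label. Without replicate 1 of the parent cells labelled prexasertib the values under that label were 1.35 exonic and 0.87 intronic. KLF10 differed by 0.07 ± 0.07 (0.01 without the same library) under the prexasertib label, with overlapping groups, and by −1.79 ± 0.07 (3.45-fold lower in knockout cells) under the DMSO label. KLF13, KLF16 and KLF2 differed little on exonic reads, between −0.13 and −0.01 under the prexasertib label and between 0.20 and 0.36 under the DMSO label. Without the same library the values under the prexasertib label were −0.14 for KLF13, 0.07 for KLF16 and 0.09 for KLF2. KLF2 intronic reads, 7 to 14 a library in knockout cells labelled prexasertib and 18 to 37 in parent cells labelled prexasertib, differed by −1.40 ± 0.39, or −1.11 without that library. Under the prexasertib label 3 members were called in knockout cells, each higher, where 14.5% and 13.5% of genes were. KLF3 is among the members in this and each further count of this paragraph. Its parent reads under the prexasertib label lay below the filter's minimum count. It was also chosen on these same counts, so its part in them carries no weight. KLF13 was called lower as well under a filter on mean CPM, with reads outside other genes, and without replicate 1 of the parent cells labelled prexasertib. Under the DMSO label 3 were called higher and 2 lower, where 19.6% and 20.4% of genes were. The groups did not overlap for 4 of 7 members under the prexasertib and 5 of 7 under the DMSO label, as for 38.1% and 53.6% of all genes. On intronic reads 4 of 7 were called under the prexasertib label, 3 higher and KLF2 lower, where 15.9% of genes were called in either direction. Under the DMSO label 5 of 7 were called, 4 higher and KLF10 lower, where 26.1% of genes were. The KLF2 call was lost without replicate 1 of the parent cells labelled prexasertib or replicate 2 or 3 of the knockout cells labelled prexasertib. That of KLF10 was lost without replicate 1 of the parent or replicate 1 or 2 of the knockout cells labelled DMSO.

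**Figure D4:**
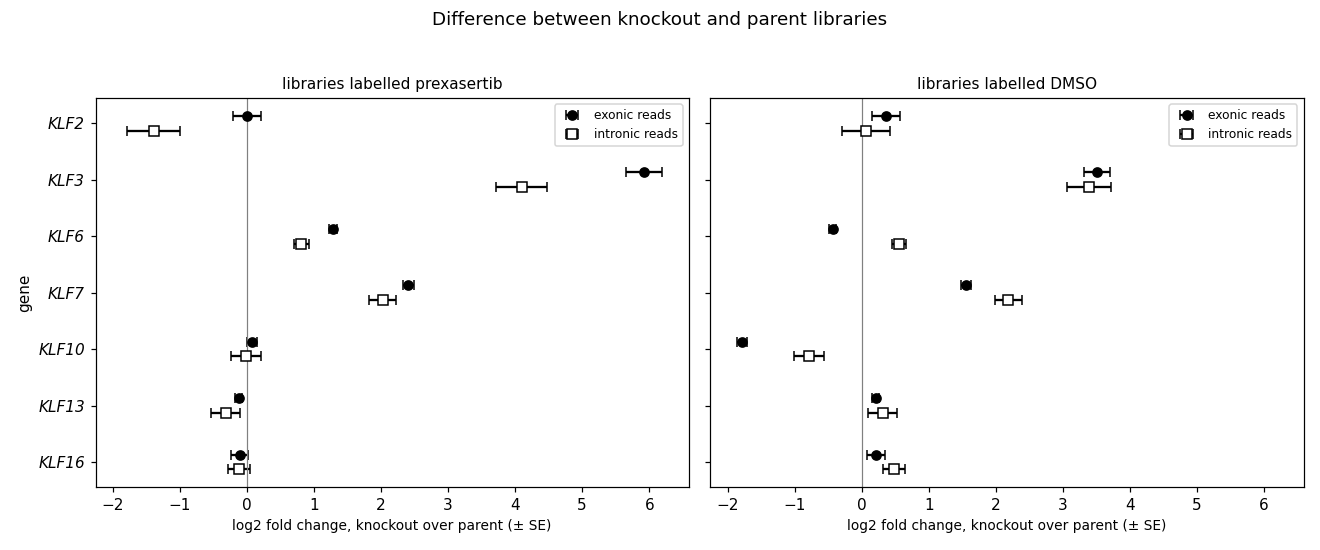
Difference between knockout and parent libraries on the log2 scale (fitted value ± SE, 3 libraries a group), for libraries labelled prexasertib on the left and labelled DMSO on the right. Filled circles are exonic and open squares intronic reads. KLF3 and KLF7 lie right of 0 in both panels, and KLF6 under the DMSO label has its exonic value left and its intronic value right of 0.

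For each member with a mean of at least 1 on the log2 CPM scale, the most similar genes over the 12 libraries were found among 12422 genes. The measure was the root mean square difference of centred log2 CPM. The choice used the same libraries, so the like differences given below follow from it. Distances are not scaled by the size of a gene's changes, so a small distance can reflect small changes. KLF6 was nearest to RGS1 (0.239), a brake on G protein signalling in lymphocytes, and BIRC3 (0.249), an NF-kappaB target that inhibits apoptosis. RGS1 differed between the labels by −0.45 in knockout and −1.61 in parent cells, and BIRC3 by −0.46 and −2.01. KLF10 was nearest to ARRDC3 (0.130), an arrestin-domain gene, and ZNF93 (0.145), a zinc finger repressor, which differed between the labels by 0.11 and 0.14 in knockout and by −1.45 and −1.36 in parent cells. KLF7 was nearest to PODXL2 (0.131) and KIAA0226L (0.166), which were higher in knockout than in parent cells by 2.15 and 2.13 under the prexasertib label and by 1.65 and 1.82 under the DMSO label. KLF13 had the closest matches, NF2 (0.0536), which encodes the tumour suppressor merlin, and MLEC (0.0564), an endoplasmic reticulum lectin, both higher in parent cells labelled prexasertib by 0.82 on the log2 scale. KLF16 was nearest to SRM (0.108), spermidine synthase, and MPRIP (0.111). Within the family the most similar pair was KLF13 and KLF16 (0.173), and KLF6 and KLF10, both highest in parent cells labelled DMSO, were 0.766 apart.

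The other genes of the pathway were taken from 5 lists of 62 genes, of which 54 were fitted. The treatment difference was called higher for 9 and lower for 2 of the 54 in knockout cells, and higher for 15 and lower for 17 in parent cells, where the shares of all genes called are those given above. The median over the lists was 0.07 in knockout and 0.00 in parent cells, against 0.00 and 0.04 over all genes. The count in knockout cells depended on single libraries, as did that over all genes. Without 1 library, all genes called in knockout cells ran from 857 to 2267 higher (1407 with all libraries) and from 1048 to 2276 lower (1575 with all libraries). The list count was 14 higher and 9 lower without replicate 1 of the parent cells labelled prexasertib. It was 5 higher and 1 lower without replicate 1 or replicate 3 of the knockout cells labelled DMSO, and 1 lower without replicate 2 of either knockout group or replicate 1 or 3 of the parent cells labelled DMSO.

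Of the other Krüppel-like and SP factors, 14 of 17 were listed in the files and 9 were fitted, 2 of them called higher and 1 lower in knockout cells, and 2 higher and 3 lower in parent cells. KLF5, an activator of epithelial proliferation, was the largest of these differences among the genes named by rule. It averaged 1.09 ± 0.39 CPM in knockout cells labelled prexasertib, against 1.74 ± 0.17 CPM in knockout cells labelled DMSO (SD, n = 3 each), a log2 difference of −0.66 at the edge of the threshold (edgeR adjusted p = 0.050), a call lost in 7 of the 12 fits without 1 library (−0.71 to −0.49, adjusted p = 0.053 to 0.23). In parent cells it averaged 1.07 ± 0.19 CPM under the prexasertib label, against 3.60 ± 0.85 CPM under the DMSO label, and fell by 1.76 (adjusted p = 3.3e-07). SP1, the general GC box activator, rose by 0.20 in knockout cells (adjusted p = 0.029, lost on leaving out any of 5 knockout libraries, at 0.057 to 0.15) and by 0.31 in parent cells (adjusted p = 0.00020). KLF12, a CtBP-dependent repressor related to KLF3, rose by 0.38 in knockout (adjusted p = 6.6e-05) and 0.26 in parent cells (adjusted p = 0.0013).

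All 17 cofactors and ubiquitin ligases were fitted, with 1 called in knockout cells, which was higher, and 3 higher and 2 lower in parent cells. The deacetylases of the SIN3 complex were among them. HDAC1 averaged 205 ± 4.2 CPM in knockout cells labelled prexasertib, against 194 ± 4.3 CPM in those labelled DMSO, and 181 ± 16 CPM in parent cells labelled prexasertib, against 128 ± 2.0 CPM in those labelled DMSO. It rose by 0.50 in parent cells (adjusted p = 5.0e-08), while the 0.08 in knockout cells did not pass (adjusted p = 0.39). HDAC2 rose by 0.46 in parent cells (adjusted p = 1.1e-07), with 0.12 in knockout cells (adjusted p = 0.15). SAP30, a subunit of the same complex, rose by 0.22 in knockout cells (adjusted p = 0.034) and fell by 0.18 in parent cells (adjusted p = 0.044). These SAP30 calls were lost in 6 and 5 of the 12 fits without 1 library, and without replicate 1 of the parent cells labelled prexasertib the parent value was −0.13 (adjusted p = 0.11). SMURF2, a ubiquitin ligase of the SMAD pathway, differed by 0.26 in knockout (adjusted p = 0.071) and 0.15 in parent cells (adjusted p = 0.26), which did not pass. Without the same library HDAC2 and SMURF2 passed in knockout cells (adjusted p = 0.031 and 0.033), and SMURF2 also without replicate 2 of the parent cells labelled DMSO (0.048).

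The kinases and transcription factors that act upstream of KLF2 and KLF4 in lymphocytes numbered 8, all fitted, with 1 called in knockout cells, which was higher, and 1 higher and 4 lower in parent cells. FOXO3, a relative of the factor that switches on KLF2 in T cells, averaged 43.3 ± 2.1 CPM in knockout cells labelled prexasertib, against 37.3 ± 1.0 CPM in those labelled DMSO, and rose by 0.22 (adjusted p = 0.022), a call lost in 4 of the 12 fits without 1 library (adjusted p = 0.073 to 0.11). In parent cells it averaged 54.3 ± 5.9 CPM under the prexasertib label, against 84.6 ± 0.84 CPM under the DMSO label, and fell by 0.64 (adjusted p = 5.4e-09). MEF2A and MEF2D, which bind MEF2 boxes such as that of KLF2, fell in parent cells by 0.46 and 0.69 (adjusted p = 7.0e-08 and 3.3e-05). In knockout cells they differed by 0.06 and −0.31 (adjusted p = 0.54 and 0.066). The MEF2D value passed in 3 fits without 1 library, that without replicate 1 of the parent cells labelled prexasertib among them (−0.31, adjusted p = 0.0038). The KLF2 difference in parent cells was +0.54, as given above.

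The 8 genes for KLF2 targets and T cell trafficking were all fitted, with 2 called higher and 1 lower in knockout cells, and 4 higher and 3 lower in parent cells. CDKN1A, the cell cycle inhibitor that KLF4 and KLF6 can activate, averaged 6.55 ± 0.17 CPM in knockout cells labelled prexasertib, against 6.79 ± 0.14 CPM in those labelled DMSO, a difference of −0.05 (adjusted p = 0.79). In parent cells it averaged 2.02 ± 0.057 CPM under the prexasertib label, against 15.03 ± 0.13 CPM under the DMSO label, and was 7.45-fold lower (adjusted p = 3.0e-18). CD69, an early activation antigen that opposes the receptor S1PR1, fell by 0.27 in knockout (adjusted p = 0.0015) and by 1.65 in parent cells (adjusted p = 8.0e-18). IL7R, the interleukin receptor of naive T cells, rose by 0.32 in knockout (adjusted p = 0.0013) and by 0.35 in parent cells (adjusted p = 0.00012).

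The TGF-beta pathway, in which KLF10 and KLF11 were first placed, had 12 genes, all fitted, with 3 called in knockout cells, each higher, and 5 higher and 5 lower in parent cells. The corepressors TGIF2 and SKIL fell in parent cells by 0.60 and 0.61 (adjusted p = 2.6e-10 and 8.5e-09), while their values in knockout cells were 0.07 and 0.02 (adjusted p = 0.40 and 0.90). All exonic bases of TGIF2 are shared with another annotated gene, so its reads cannot be told apart from that gene's. SMAD2, a signal transducer, rose by 0.24 in knockout (adjusted p = 0.0016) and by 0.30 in parent cells (adjusted p = 2.0e-05). TGFBR1, the type I receptor, rose by 0.25 in knockout (adjusted p = 0.0034) and by 0.53 in parent cells (adjusted p = 3.6e-08).

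**Figure D5:**
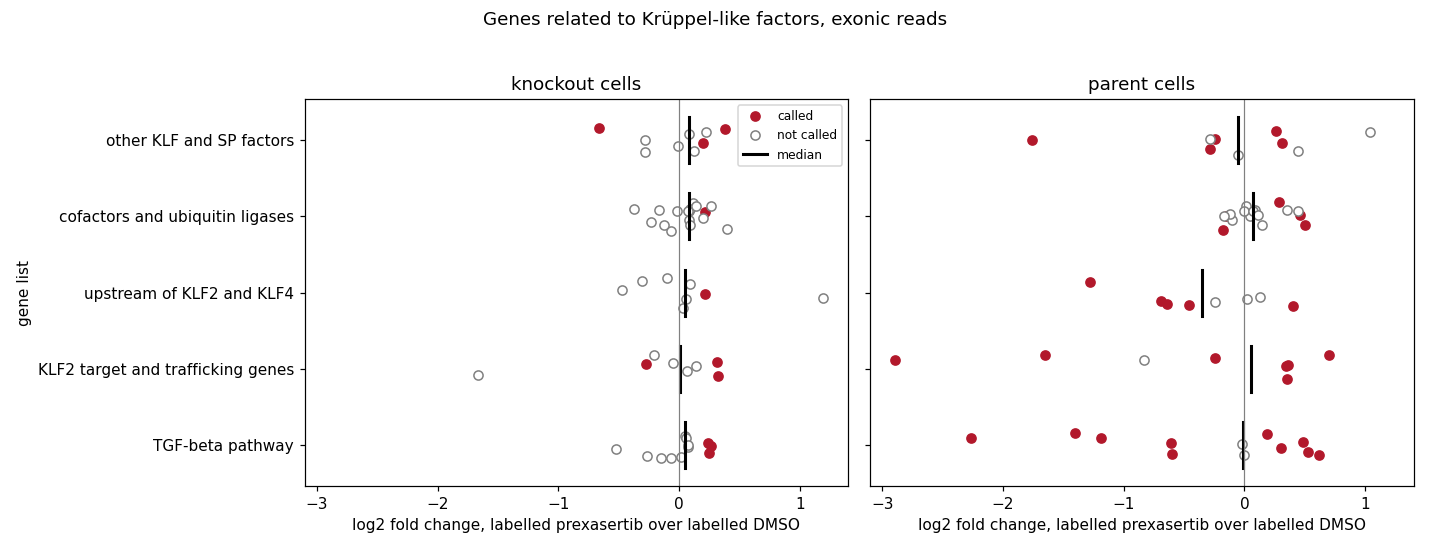
Log2 fold change of exonic reads between libraries labelled prexasertib and labelled DMSO for the fitted genes of the 5 related lists, in knockout cells on the left and parent cells on the right, with vertical scatter for legibility. Filled points passed the edgeR threshold (11 of 54 genes in knockout and 32 of 54 in parent cells), open points did not, and thick bars are list medians.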

How the data were processed

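The 10 members, the related lists and the tests were chosen with earlier results of these data known. Per the submitters' processing notes, reads were handled with STAR 2.5.4a on hg19, Picard 2.9.2 and the trimmers Trimmomatic 0.39 and Trim Galore 0.6.2. The counting program, annotation, strand setting and treatment of mates are not given in the sources used here. The authors deposited, per the file headers, exonic and intronic read counts and TPM for each feature and library; features missing from a file were set to 0, and 36 copies of Y-chromosome pseudoautosomal features were left out. The deposited exonic TPM was used for levels across genes. File coordinates, 0-based at both ends, were raised by 1.

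Counts were fitted with edgeR 4.0.16 in R 4.3.3 (TMM, filterByExpr with a minimum count of 10, robust quasi-likelihood fit of 4 group means over 12 libraries, Benjamini-Hochberg adjusted p at most 0.05). This kept 23045 features for exonic counts and 19852 for intronic counts, which used the exonic effective library sizes. Replicates differed by more than sampling noise, with chi-square per degree of freedom of 4.52 to 37.5, so none was counted as a duplicate. The fit was also run on simulated data with the same spread for all genes and changes only in genes with many reads. That run does not cover low counts or a library that stands apart. An SE of a log2 difference is its absolute value divided by the square root of the F statistic. Such an SE can be too narrow where reads are few, as for KLF3 in parent cells. CPM are scaled to TMM-adjusted exonic totals, and intervals and floors cover counting error only. Genes named are the members, the 2 most similar genes for each, and the 2 genes of lowest p in each list and line; others are named as chosen after their values were seen. Alternatives were DESeq2 1.42.0, limma 3.58.1 on log2(TPM + 1), RLE scaling, other filters and read sets, a replicate block, the contrast's groups alone, and each library left out. Replicate numbers did not pair libraries.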

Additional observations from a re-analysis of the deposited data

Results flagged for a closer look

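The difference between the treatment labels was itself compared between knockout and parent cells. It passed edgeR's test for 11 of the 17 related genes named by rule. Those 17 were picked by their p in the treatment differences of the same fit, so this count cannot be set against a share of all genes. Among all 54 fitted genes of the lists it was called higher for 16 and lower for 7, where 9.53% of all genes were called higher and 7.32% lower. All values are the log2 difference in knockout minus that in parent cells, on exonic reads, and all change sign if the library names hold. For 5 members, chosen on these counts, the values are descriptions with no test, namely +2.42 for KLF3, +1.86 for KLF10, +1.72 for KLF6, +0.85 for KLF7 and −0.33 for KLF13. KLF3 rests on 12 and 78 reads in the parent groups, and those labelled prexasertib lay below the filter's minimum count in each library.

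Among the related genes named by rule CDKN1A had the largest value, +2.85 (edgeR adjusted p = 2.3e-14), followed by CD69 at +1.38 (2.5e-12) and KLF5 at +1.10 (0.015). FOXO3 was at +0.86, TGIF2 at +0.67, SKIL at +0.63, MEF2A at +0.52 and SAP30 at +0.40. Values below 0 were found for HDAC1 at −0.42, HDAC2 at −0.34 and TGFBR1 at −0.28. TGFBR1 did not pass in 6 of the 12 fits without 1 library (adjusted p = 0.054 to 0.095) nor KLF5 without replicate 1 of the knockout cells labelled prexasertib (+0.77, adjusted p = 0.10). Calls were also gained. Without replicate 1 of the parent cells labelled prexasertib MEF2D was at +0.55 (edgeR adjusted p = 0.00044) and KLF12 at +0.23 (0.0092). MEF2D also passed without replicate 3 of the knockout cells labelled prexasertib (+0.50, 0.034). The cause of these differences was not tested.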

How the results depend on the processing

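Most results kept their direction and their side of the threshold. Among values past the threshold in either of the fits compared, 1 turned, the intronic difference of KLF7 in parent cells, 0.01 with all libraries, −0.39 without replicate 1 of the prexasertib label and up to 0.22 without another library. Of the values past it in neither fit, 10 member values and 7 of related genes also changed sign in some alternative, such as the intronic KLF13 difference between lines under the prexasertib label (−0.32, and 0.10 without the same replicate 1). With limma on log2(TPM + 1), 2 members instead of 4 were lower in parent cells, and under the DMSO label 5 instead of 3 were higher and 1 instead of 2 lower in knockout cells. Under the prexasertib label 1 member instead of 0 was lower in knockout cells both with a mean CPM of at least 1 and with exonic reads outside other genes. By TPM of all reads of a gene, which divides by the whole gene, 4 of 10 members kept their place in the order.

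Leaving out single libraries gave these ranges for the member counts. Exonic calls in parent cells were 2 to 3 higher, in knockout cells 3 to 4 higher, and knockout against parent under the prexasertib label 0 to 1 lower. Intronic calls were 1 to 2 lower in parent cells, and 0 to 1 higher and 0 to 1 lower in knockout cells. In knockout against parent they were 0 to 1 lower under both labels and 3 to 5 higher under the DMSO label. For the difference of differences they were 0 to 1 lower. Over all genes the intronic calls moved too, from 1279 to 2068 lower in parent cells. In knockout cells they ran from 218 to 1629 higher and from 512 to 1810 lower. Between lines 1151 to 3067 were lower under the prexasertib label. Under the DMSO label 2095 to 4983 were higher and 1457 to 2824 lower. For the difference of differences 372 to 2365 were lower. The related lists gave 12 to 15 higher and 16 to 21 lower in parent cells, 5 to 14 higher and 1 to 9 lower in knockout cells, 11 to 16 and 13 to 18 between lines under the prexasertib label, 9 to 12 and 19 to 25 under the DMSO label, and 13 to 20 and 4 to 9 for the difference of differences. In the same fits the exonic calls over all genes in knockout cells ran from 857 to 2267 higher and from 1048 to 2276 lower. In parent cells 2924 to 4030 were higher and 3689 to 4621 lower. Between lines 2667 to 3801 were higher and 2394 to 3124 lower under the prexasertib label. Under the DMSO label 3631 to 4787 were higher and 4040 to 5804 lower. For the difference of differences 1800 to 2905 were higher and 953 to 2137 lower. The cause of these shifts was not tested.

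Correlations between same-numbered libraries ran from −0.06 to 0.12, 1 of 18 over 0.1, and 5 of 12 libraries matched their own number best. With the number as a replicate block no member call changed, and 1 related gene instead of 2 was lower in knockout cells, KLF5 being the one lost. Depth limits KLF4, KLF9 and KLF11, and parent KLF3.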

Other observations

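Some related genes outside the naming rule separated the lines and are named after their values were seen, with no test. MEF2C, a partner of MEF2A upstream of KLF2, averaged 0.0943 ± 0.018 CPM in knockout cells labelled prexasertib and 0.0426 ± 0.025 CPM in knockout cells labelled DMSO, against 3.39 ± 0.31 and 4.02 ± 0.64 CPM in parent cells under the same labels (SD, n = 3 each). S1PR1, the egress receptor that KLF2 activates in T cells, averaged 122 ± 0.33 and 117 ± 3.9 CPM in knockout cells, against 29.4 ± 1.9 and 34.9 ± 3.2 CPM in parent cells, while KLF2 itself differed between the lines by −0.01 and 0.36 on the log2 scale under the prexasertib and DMSO labels. SMAD7, the inhibitory SMAD, averaged 0.317 ± 0.12 and 0.380 ± 0.051 CPM in knockout cells, against 0.731 ± 0.26 and 3.58 ± 0.44 CPM in parent cells.

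The fitted features around KLF3 and KLF7 were also looked at after their values were seen. They are given with no test as differences between knockout and parent cells on the log2 scale. Features that did not pass the filter were skipped, so places and nearness count fitted features only. The transcript RP11-617D20.1, which overlaps the start of KLF3, differed by 3.72 under the prexasertib and 2.16 under the DMSO label, at 0.182 and 0.262 CPM in knockout cells against 0.0114 and 0.0542 CPM in parent cells. TLR1, the next fitted gene on the other side, differed by −1.53 and −1.78. It was at 0.0588 and 0.109 CPM in knockout cells against 0.176 and 0.381 CPM in parent cells. TLR6 beyond it differed by −1.10 and −1.15. Of the genes 3 places away, both read at over 1 CPM, TBC1D1 differed by 0.16 and 0.28 and TMEM156 by −0.27 and −0.58. Next to KLF7, FASTKD2 differed by 0.14 under the prexasertib and −0.10 under the DMSO label, and on the other side CREB1, 3 places away, by 0.25 and −0.13. The transcript KLF7-IT1, inside KLF7, differed by 1.91 and 1.99.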
